A study of Mus musculus with 375 samples.

Results

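The fatty acid uptake and beta-oxidation genes described here were 32 of the 21859 nuclear genes counted in single cardiomyocytes of pressure-overloaded mouse hearts. They were chosen by name, with earlier results of these data known, so their direction beside all genes is a description and not a test. They are the genes that carry a fatty acid into the heart muscle cell, activate it, move it into the mitochondrion and shorten it there. All 32 had a row of counts. Cells were taken 2 weeks after transverse aortic constriction (TAC), a surgical narrowing of the aorta that the left ventricle must pump against, and RNA of each cell was sequenced with Smart-seq2, a full-length single-cell method. The CD8-depleted group (136 cells) came from mice injected with an anti-CD8 antibody from the day of TAC until the hearts were taken. The CD3e-/- group (111 cells) came from knockouts without CD3 epsilon, a part of the T cell receptor that mature T cells need, in any tissue, and the WT group (128 cells) from wild-type mice. All groups had TAC and a C57BL/6N strain label, and the study used males aged 8 weeks. Sham-operated hearts were not analysed here. Left ventricles were digested by perfusion and single rod-shaped cells were picked by hand, so cells that did not survive this were not sampled. Each group had 2 numbered sets of cells (n = 2). The study's methods say that the cells were collected from 2 mice, but no label ties a set to an animal. P-values may therefore measure technical spread alone.

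Heart muscle draws most of its ATP from long-chain fatty acids. These enter through CD36 and fatty acid transport proteins, are held in the cytosol by FABP3 and are joined to coenzyme A by acyl-CoA synthetases. The carnitine shuttle takes them across the mitochondrial membranes, and carnitine palmitoyltransferase 1 is its gate, which malonyl-CoA closes. Inside, each turn of the spiral removes acetyl-CoA by a dehydrogenation, a hydration, a second dehydrogenation and a thiolysis. Electrons of the first dehydrogenation pass through the electron transfer flavoprotein (ETF), a dimer of the products of Etfa and Etfb, to ubiquinone. The later steps on long chains are carried by the trifunctional protein, built from Hadha and Hadhb subunits.

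The results below turn on these pairs of partner subunits, so the start regions of the 4 genes are shown as RefSeq promoter windows on GRCm38.p6, from 250 bases before to 50 bases after the transcription start. Capitals mark the GC box GGGCGG and the CCAAT box, read on either strand. Etfa lies at chr9:55512194-55512493 (minus strand), Etfb at chr7:43443822-43444121 (plus strand), Hadha at chr5:30154931-30155230 (minus strand) and Hadhb at chr5:30155003-30155302 (plus strand).
Etfa: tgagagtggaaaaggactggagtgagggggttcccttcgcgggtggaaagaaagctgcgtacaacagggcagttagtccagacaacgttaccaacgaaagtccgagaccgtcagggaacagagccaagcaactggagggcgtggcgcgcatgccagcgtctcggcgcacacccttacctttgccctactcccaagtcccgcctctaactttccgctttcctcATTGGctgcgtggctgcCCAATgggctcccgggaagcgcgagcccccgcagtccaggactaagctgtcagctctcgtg
Etfb: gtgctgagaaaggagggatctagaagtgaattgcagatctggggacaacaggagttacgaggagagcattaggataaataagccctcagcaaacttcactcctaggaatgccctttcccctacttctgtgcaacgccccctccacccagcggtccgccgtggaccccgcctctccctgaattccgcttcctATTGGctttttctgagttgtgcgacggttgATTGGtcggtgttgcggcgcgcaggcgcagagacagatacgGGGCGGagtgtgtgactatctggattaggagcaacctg
Hadha: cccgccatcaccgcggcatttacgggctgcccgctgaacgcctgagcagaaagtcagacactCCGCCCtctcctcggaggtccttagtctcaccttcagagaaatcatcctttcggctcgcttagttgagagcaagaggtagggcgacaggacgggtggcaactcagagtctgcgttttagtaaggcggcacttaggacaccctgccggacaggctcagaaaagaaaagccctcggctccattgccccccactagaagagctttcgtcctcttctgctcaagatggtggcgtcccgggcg
Hadhb: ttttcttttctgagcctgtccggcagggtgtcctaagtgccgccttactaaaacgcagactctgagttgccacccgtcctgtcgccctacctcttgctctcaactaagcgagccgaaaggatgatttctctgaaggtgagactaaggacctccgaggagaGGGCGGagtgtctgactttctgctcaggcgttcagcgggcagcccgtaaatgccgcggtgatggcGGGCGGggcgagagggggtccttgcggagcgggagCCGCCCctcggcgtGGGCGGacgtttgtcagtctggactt
Hadha and Hadhb stand head to head, with 85 bases between their gene models in the count table, and their windows shared 228 bases read on opposite strands. Etfa and Etfb lie on different chromosomes. A window was found for 27 of the 32 genes (30 windows). A GC box was in 20 of the 30 (66.7%), against 35.7% of all 32851 windows of this length, and CCAAT was in 16 (53.3%), against 37.4%. The nuclear receptor motif AGGTCA was in 6 (20%), those of Acacb, Acadm, Acadvl, Cd36, Cpt1a and Echs1, against 16.3% of all windows. Neither the extended motif TNAAGGTCA (1.28% of all windows) nor a direct repeat of AGGTCA with 1 base between (0.0396%) was found in the 30. These matches are descriptions of letters, not binding sites.

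After cells with fewer than 3000 detected genes and 1 pair of cells with identical counts were left out, 320 cells remained, in sets of 62 and 49 (CD8-depleted), 11 and 77 (CD3e-/-) and 59 and 62 (WT). Nuclear genes had 7643239 and 5469742 counts in CD8-depleted cells, 604652 and 24057660 in CD3e-/- cells and 23691021 and 20540110 in WT cells. Levels are given as CPM, counts of a gene scaled to a common total of nuclear counts, always for set 1 and then set 2 of a group. Mitochondrially encoded genes took a median of 93.99% and 90.82% of the counts of a CD8-depleted cell, 94.09% and 92.12% of a CD3e-/- cell, and 77.29% and 85.35% of a WT cell. All 10 cardiomyocyte markers were read in every set. They summed to 193800 and 170100 CPM in CD8-depleted cells, 62660 and 160700 CPM in CD3e-/- cells and 138200 and 184900 CPM in WT cells. CD3e-/- set 1 stood apart, with 35.48% of its cells kept, a correlation of 0.616 to 0.654 with the other sets (0.937 to 0.969 among those) and olfactory and vomeronasal receptor genes at 13210 CPM (53.9 to 222.1 CPM elsewhere). Each comparison was therefore fitted with all 6 sets and without this set (5 sets). Cd3e itself had 1 and 2 counts in CD8-depleted cells, 4 and 37 in CD3e-/- cells and 0 in both WT sets. These cells are not T cells and gene counts do not show which exons were read, so this checks no label.

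In CD8-depleted cells most of the 32 genes lay below WT, but none passed the test across all genes. The median fold change of the 32 was −0.49 on the log2 scale over 6 sets and −0.52 over 5, against 0.02 and −0.02 for all genes tested. In both fits 25 of the 32 were below 0, against 49.2% and 50.7% of all genes. With edgeR over 6 sets, 0 of the 32 passed an adjusted p of 0.05, and 0 of 12936 genes did (0%). At an unadjusted p of 0.05 no member passed over 6 sets, against 341 of all genes (2.64%). Over 5 sets, 0 of the 32 passed after adjustment, against 32 of 13374 genes (0.239%). At an unadjusted p of 0.05, 9 of the 32 (28.1%) passed over 5 sets, against 1330 of all genes (9.94%). Of the 9 members 8 were lower, and of the 1330 genes 714 were. Of the 32 genes, 28 lie above the median gene by mean level. Among all such genes 13.2% passed at this p (885 genes, 569 of them lower), with a median log2 of −0.13. DESeq2 called 0 of the 32 over 6 sets, among 8 of 12936 genes. Over 5 sets it called Hadhb, Etfa and Hadh, all lower, among 156 genes (1.17%), of which 63 were lower. When a further set was left out beside CD3e-/- set 1, the lone set of a group was assumed to vary like the others. In these fits edgeR called 1 member without CD8-depleted set 1 (Hadh), among 107 genes (0.812%), and 0 without CD8-depleted set 2, among 39 genes (0.298%). It called 2 without WT set 1 (Etfa and Hadh), among 78 genes (0.619%), and 6 without WT set 2 (Hadh, Etfa, Acot2, Hadhb, Etfb and Cpt1b), among 226 genes (1.74%). Both CD8-depleted sets lay below both WT sets for 17 of the 32 genes in plain CPM, a pattern of 19.7% of genes tested, and above both for 5, a pattern of 20.1%. With TMM scaling these counts were 14 and 3, against 21.4% and 19.1% of genes.

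**Figure D1:**
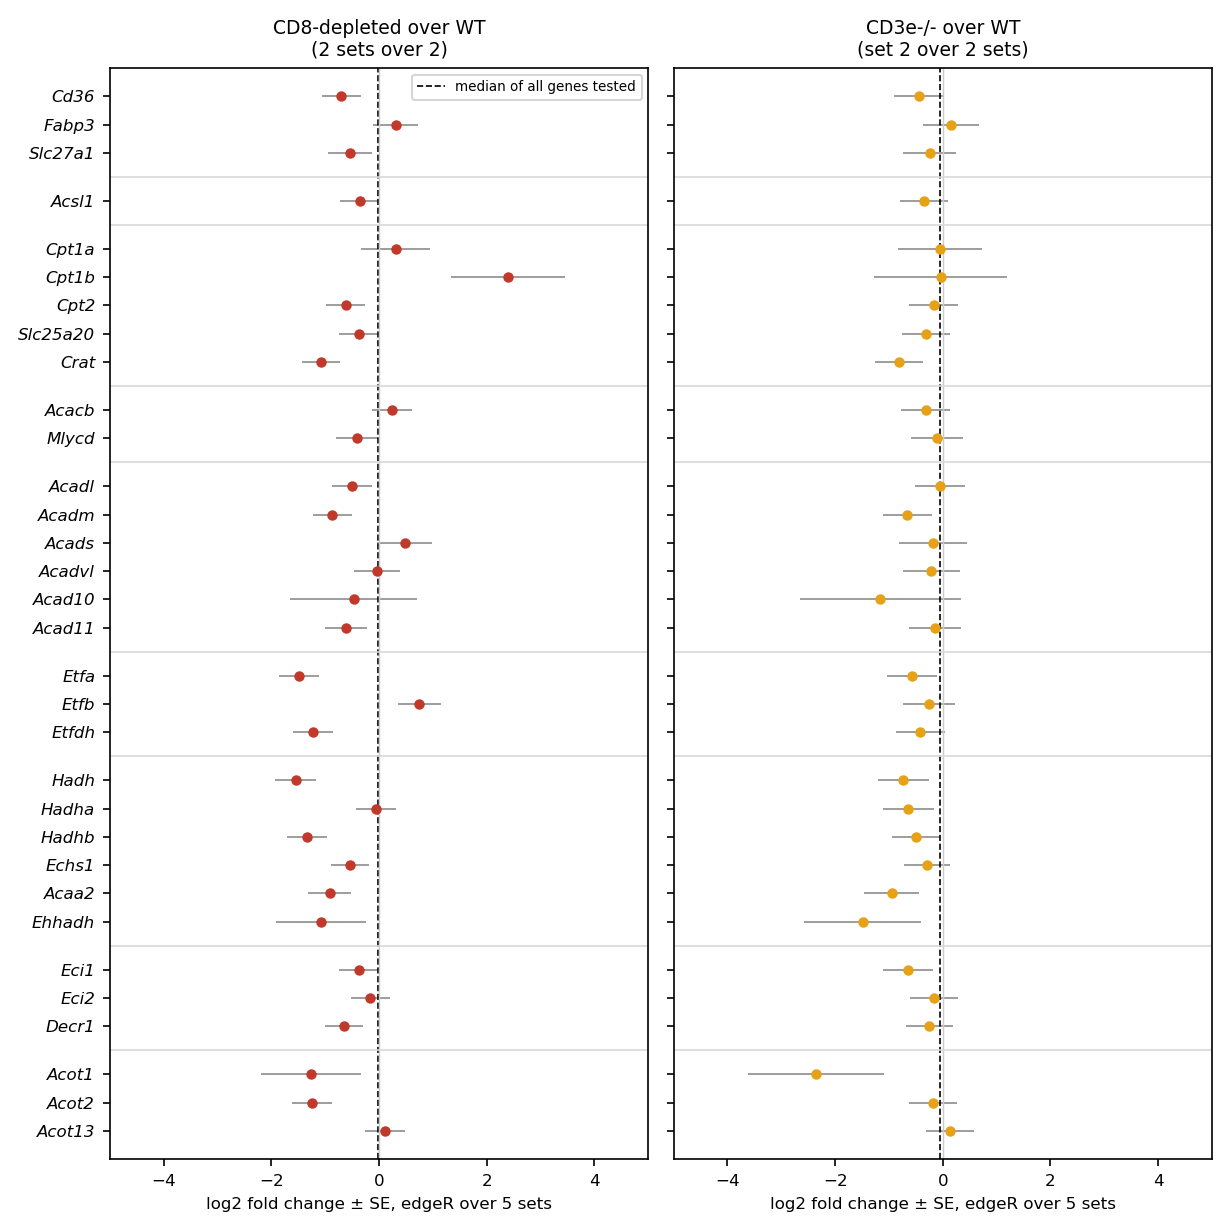
Log2 fold change (horizontal axis, ± SE) of each of the 32 genes over 5 sets, in the order of the pathway, for CD8-depleted over WT (left) and CD3e-/- set 2 over WT (right). The SE on the right rests on the spread of the other groups, since CD3e-/- has 1 set there. The dashed line is the median of all genes tested. The lowest CD8-depleted values are those of Hadh (−1.55) and Etfa (−1.49), and the highest is that of Cpt1b (2.39).

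Uptake was split between its 2 abundant genes. Fabp3, the cytosolic fatty acid carrier of heart muscle, had the highest level per length of the 32, with a mean of 18180 CPM per kb of exon over 5 sets, and no other gene exceeded 2024. Fabp3 had 14160 and 18360 CPM in CD8-depleted cells, 1082 and 16540 CPM in CD3e-/- cells and 12460 and 13270 CPM in WT cells. Both CD8-depleted sets were above both WT sets, by a log2 of 0.31 that did not pass, and with TMM scaling the groups overlapped. Cd36, the membrane receptor that takes up long-chain fatty acids, ran the other way, with 747 and 976 CPM in CD8-depleted cells, 1159 and 1167 CPM in CD3e-/- cells and 1747 and 1077 CPM in WT cells. Both CD8-depleted sets were below both WT sets (log2 −0.70 ± 0.36, adjusted p = 0.531 over 5 sets). Capillary endothelium also expresses Cd36, and the summed level of 10 endothelial markers was 202 and 769 CPM in CD8-depleted cells, 1447 and 217 CPM in CD3e-/- cells and 308 and 310 CPM in WT cells. The part of those cells in Cd36 was not tested. After thinning to 50000 nuclear counts, Cd36 was read in 100% of cells in every set. Slc27a1, a fatty acid transport protein, had 47 and 64.2 CPM in CD8-depleted cells, 11.6 and 78 CPM in CD3e-/- cells and 88.4 and 72.2 CPM in WT cells. The CD8-depleted sets were again the lower ones, without passing.

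Acsl1, the main long-chain acyl-CoA synthetase of the heart, moved little. It had 492 and 436 CPM in CD8-depleted cells, 326 and 532 CPM in CD3e-/- cells and 541 and 622 CPM in WT cells. The CD8-depleted sets lay just below the WT sets (log2 −0.36 over 5 sets), and they overlapped once TMM factors were applied.

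The carnitine shuttle held the highest fitted value of the 32 genes, that of Cpt1b, and a low one, that of Crat, neither past the test. Cpt1b, the muscle form of carnitine palmitoyltransferase 1, had 15.7 and 8.59 CPM in CD8-depleted cells, 0 and 2.58 CPM in CD3e-/- cells and 0.296 and 3.89 CPM in WT cells. The 0 of CD3e-/- set 1 allows up to 4.96 CPM. Both CD8-depleted sets were above both WT sets (log2 2.39 ± 1.06, adjusted p = 0.424 over 5 sets), and WT set 1 was the lowest set with a read. Cpt1a, the liver form, had 16.5 and 16.8 CPM in CD8-depleted cells, 43 and 14.8 CPM in CD3e-/- cells and 9.62 and 16.1 CPM in WT cells. CD8-depleted set 2 and WT set 2 were close for Cpt1a, and the highest cell of CD8-depleted set 1 held 50% of its Cpt1a counts. Per exon base, Cpt1b made up 68.3% and 53.7% of both Cpt1 forms in CD8-depleted cells, 0% and 28.3% in CD3e-/- cells and 6.51% and 35.4% in WT cells. The CD8-depleted and WT shares did not overlap (exact permutation test over sets, two-sided p = 0.333, the smallest that 2 against 2 sets can give). For CD3e-/- the exact p was 0.667 over WT and 0.333 over CD8-depleted with all 6 sets. The level of Cpt1b is uncertain in all sets, because 2744 of its 3372 exon bases (81.4%) are also covered by the gene model Gm44502 on the same strand, which had 0 counts in every set. How reads in shared bases were handled is not given in the sources used here. Thinned to 50000 counts, Cpt1b was read in 29.8% and 21.7% of CD8-depleted cells, 0% and 12% of CD3e-/- cells and 0% and 12.9% of WT cells, against 15.8% and 28.3%, 75% and 34.7%, and 22% and 21% of the same cells for Cpt1a. The exact 95% interval of the 0% was up to 6.06% in WT set 1 and up to 60.2% in CD3e-/- set 1, where 4 cells were deep enough.

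Downstream of the gate, Crat, which exchanges acetyl groups between carnitine and coenzyme A, had 226 and 187 CPM in CD8-depleted cells, 51.3 and 283 CPM in CD3e-/- cells and 493 and 378 CPM in WT cells. Both WT sets were the highest for Crat (log2 −1.08 ± 0.35 for CD8-depleted, adjusted p = 0.238 over 5 sets). Cpt2, which returns the acyl group to coenzyme A inside the mitochondrion, had 223 and 147 CPM in CD8-depleted cells, 9.92 and 289 CPM in CD3e-/- cells and 251 and 304 CPM in WT cells. Its CD8-depleted sets were below the WT sets by less than the gap within either group, and overlapped them with TMM scaling. Slc25a20, the carnitine-acylcarnitine carrier, was at 119 and 114 CPM in CD8-depleted cells, 52.9 and 138 CPM in CD3e-/- cells and 187.7 and 116.9 CPM in WT cells, so that WT set 1 alone stood high.

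The pair that sets malonyl-CoA levels did not separate the groups. Acacb, the acetyl-CoA carboxylase that makes malonyl-CoA at the mitochondrion, had 222 and 166 CPM in CD8-depleted cells, 149 and 150 CPM in CD3e-/- cells and 147 and 173 CPM in WT cells. Mlycd, which degrades malonyl-CoA, had 102 and 58 CPM in CD8-depleted cells, 18.2 and 114 CPM in CD3e-/- cells and 102 and 107 CPM in WT cells. CD8-depleted set 1 equalled WT for Mlycd and set 2 lay lower.

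Among the 6 genes of the first dehydrogenation, 3 were lower in both CD8-depleted sets than in both WT sets in plain CPM, a pattern of 19.7% of genes tested, and 2 (Acadm and Acad11) with TMM scaling, against 21.4%. Acadl, the long-chain acyl-CoA dehydrogenase and the most abundant of them per length, had 1041 and 561 CPM in CD8-depleted cells, 374 and 1254 CPM in CD3e-/- cells and 1148 and 1098 CPM in WT cells. CD8-depleted set 1 was close to WT set 2 for Acadl, and the groups overlapped with TMM scaling. Acadm, the medium-chain enzyme, had 583 and 427 CPM in CD8-depleted cells, 129 and 666 CPM in CD3e-/- cells and 845 and 960 CPM in WT cells. WT was the highest group in both of its sets for Acadm (log2 −0.87 ± 0.36 for CD8-depleted, adjusted p = 0.399 over 5 sets). Acad11, which handles long chains and hydroxy acids, had 57.6 and 60.2 CPM in CD8-depleted cells, 23.2 and 92.7 CPM in CD3e-/- cells and 113 and 68.6 CPM in WT cells, and passed in neither fit. Acads, the short-chain enzyme, was the exception, with 26.8 and 37.1 CPM in CD8-depleted cells, 43 and 23 CPM in CD3e-/- cells and 23.4 and 21.9 CPM in WT cells. Acads was above WT in both CD8-depleted sets, by a log2 of 0.48 that did not pass. Acadvl, the very-long-chain enzyme, ranged over 51.2 to 89.8 CPM in the CD8-depleted and WT sets with overlap. The opposite-strand gene Dvl2 covers 1151 of its 2686 exon bases. Acad10, a scarce homologue, had 4.19 and 2.38 CPM in CD8-depleted cells, 28.1 and 2.33 CPM in CD3e-/- cells and 3.88 and 5.01 CPM in WT cells. Its high value in CD3e-/- set 1 came with 58.8% of the counts in 1 cell, and 19.9% of its 51-base stretches also occur in transcripts of another gene, most often Acad12.

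Over all kept cells, electron transfer to ubiquinone showed partner genes on opposite sides of WT. Etfa, the alpha subunit of ETF, had 294 and 159 CPM in CD8-depleted cells, 273 and 489 CPM in CD3e-/- cells and 710 and 564 CPM in WT cells. Etfb, the beta subunit, had 1044 and 1427 CPM in CD8-depleted cells, 285 and 699 CPM in CD3e-/- cells and 469 and 923 CPM in WT cells. Both CD8-depleted sets were below both WT sets for Etfa (log2 −1.49 ± 0.37, adjusted p = 0.0834 over 5 sets) and above both for Etfb (log2 0.75 ± 0.40, adjusted p = 0.545). In cells with 85% to 95% mitochondrially encoded counts, the groups overlapped for Etfb. It had 1062 and 1493 CPM there in CD8-depleted cells and 703 and 1125 CPM in WT cells. Etfdh, the oxidoreductase that takes the electrons from ETF to ubiquinone, followed Etfa, with 365 and 188 CPM in CD8-depleted cells, 220 and 552 CPM in CD3e-/- cells and 706 and 582 CPM in WT cells (log2 −1.22 ± 0.37, adjusted p = 0.188 over 5 sets). The 2 WT sets were the highest for Etfdh, with CD3e-/- set 2 next.

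The ratio of Etfa to Etfb counts, which no scaling of the sets can change, was 0.281 and 0.111 in CD8-depleted cells, 0.959 and 0.699 in CD3e-/- cells and 1.51 and 0.611 in WT cells. The CD8-depleted ratios were the lowest. On the log2 scale the WT sets differed from each other by about as much as the CD8-depleted sets did. WT set 2 was nearer to CD8-depleted set 1 than to WT set 1. The median cell of CD3e-/- set 2 had a log2 ratio of −1.7, near the −1.51 of WT set 2. The exact permutation test over 2 against 2 sets gave p = 0.333 for CD8-depleted over WT, the smallest possible. Within cells, Etfa had more counts than Etfb in 4.84% and 2.04% of CD8-depleted cells, 27.3% and 20.8% of CD3e-/- cells and 64.4% and 17.7% of WT cells. These pairs were picked for a ratio after their values were seen. For Etfb, 617 of 1164 exon bases are shared with the model Etfbl, which had at most 1 count in a set.

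**Figure D2:**
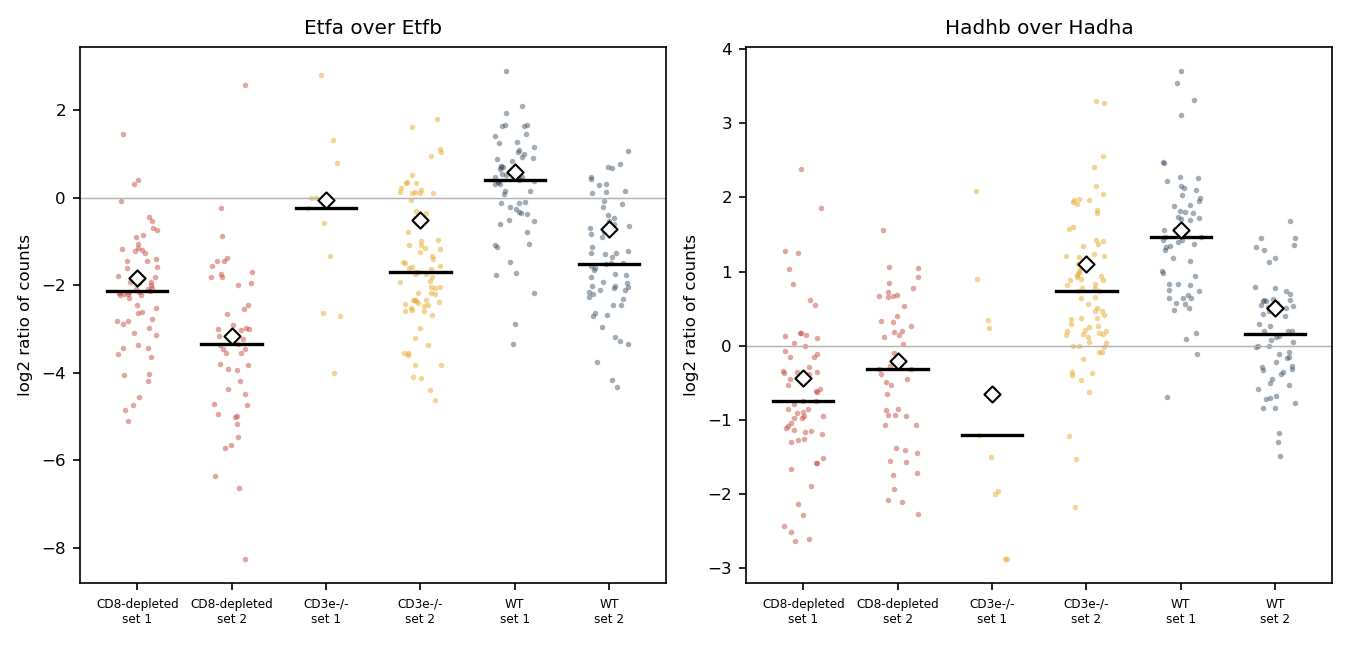
Log2 ratio of counts (vertical axis) of Etfa to Etfb and of Hadhb to Hadha in the 6 sets, with 1 point per cell (1 added to each count), the median cell as a bar and the ratio of summed counts as a diamond. Median cells lie at −2.13 and −3.35 in CD8-depleted cells and 0.41 and −1.51 in WT cells for Etfa to Etfb, and at −0.74 and −0.31 against 1.46 and 0.16 for Hadhb to Hadha.

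The later steps of the spiral had all 6 genes below 0 in CD8-depleted cells over WT (median log2 −1.0 over 5 sets). The median log2 was further below 0 for electron transfer (−1.22, with 2 of 3 genes below 0) and for the thioesterases (−1.24, with 2 of 3). For the later steps, the summed level was 3527 and 2515 CPM in CD8-depleted cells, 1067 and 3940 CPM in CD3e-/- cells and 5370 and 5199 CPM in WT cells. Both WT sums were above those of the other 4 sets. Hadh, the hydroxyacyl-CoA dehydrogenase of short and medium chains, had 172 and 88.5 CPM in CD8-depleted cells, 213 and 262 CPM in CD3e-/- cells and 478 and 296 CPM in WT cells. No CD8-depleted set reached WT for Hadh, and its log2 of −1.55 ± 0.38 had the smallest p of the 32 genes (adjusted p = 0.0783 over 5 sets, rank 49 among 13374 genes). Its median cell was at 116 and 58 CPM in CD8-depleted cells, 118 and 186 CPM in CD3e-/- cells and 414 and 198 CPM in WT cells.

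Hadhb, the thiolase subunit of the trifunctional protein, had 799 and 740 CPM in CD8-depleted cells, 194 and 1570 CPM in CD3e-/- cells and 2318 and 1602 CPM in WT cells. Its partner Hadha, the subunit with hydratase and dehydrogenase activity, had 1079 and 849 CPM in CD8-depleted cells, 304 and 729 CPM in CD3e-/- cells and 789 and 1132 CPM in WT cells. Hadhb was lower in both CD8-depleted sets (log2 −1.34 ± 0.37, adjusted p = 0.121 over 5 sets), while Hadha overlapped WT. The start regions of both genes share bases printed above, and the part of these bases in either level was not tested. The ratio of Hadhb to Hadha counts was 0.741 and 0.871 in CD8-depleted cells, 0.636 and 2.15 in CD3e-/- cells and 2.94 and 1.42 in WT cells. WT set 2 was nearer to CD8-depleted set 2 than to WT set 1 on the linear scale (exact permutation p = 0.333 for CD8-depleted over WT on log2 ratios, again the smallest possible). Hadhb exceeded Hadha in 22.6% and 42.9% of CD8-depleted cells, 36.4% and 81.8% of CD3e-/- cells and 96.6% and 56.5% of WT cells.

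The other genes of these steps were nearer to 0 than Hadh. Acaa2, the thiolase that ends the spiral for medium and short chains and the most abundant of the group per length, had 1100 and 465 CPM in CD8-depleted cells, 124 and 873 CPM in CD3e-/- cells and 1221 and 1648 CPM in WT cells. CD8-depleted set 1 came close to WT set 1 for Acaa2, and with TMM scaling they overlapped. Echs1, the short-chain enoyl-CoA hydratase, had 369 and 371 CPM in CD8-depleted cells, 232 and 500 CPM in CD3e-/- cells and 551 and 511 CPM in WT cells. The CD8-depleted sets were nearly equal for Echs1, below both WT sets, without passing (log2 −0.54 over 5 sets). Ehhadh, a peroxisomal bifunctional enzyme, was scarce at 8.5 and 2.74 CPM in CD8-depleted cells, 0 and 4.86 CPM in CD3e-/- cells and 13.2 and 10.8 CPM in WT cells. The 0 of CD3e-/- set 1 again allows up to 4.96 CPM.

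**Figure D3:**
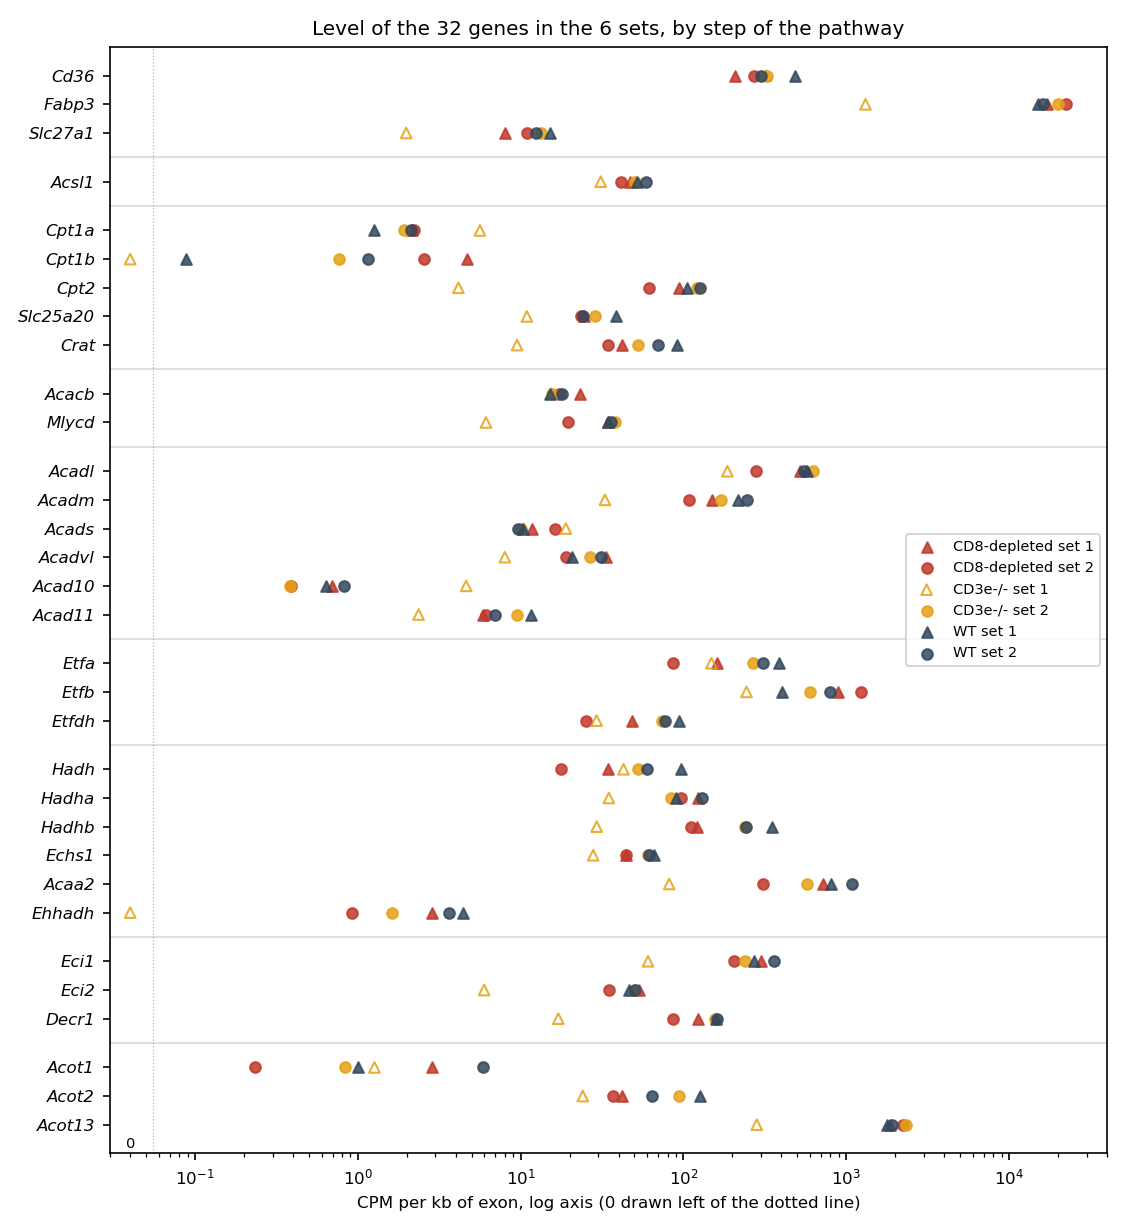
Level of each of the 32 genes (horizontal axis, CPM per kb of exon, log scale) in the 6 sets, in the order of the pathway with lines between steps. Triangles are sets 1 and circles sets 2, and the open triangle is CD3e-/- set 1, which lies far below the other sets for most genes. Fabp3 is the highest gene in all 6 sets.

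Genes that prepare unsaturated chains showed smaller differences. Eci1, the mitochondrial enoyl-CoA isomerase and the most abundant of them per length, had 636 and 433 CPM in CD8-depleted cells, 129 and 508 CPM in CD3e-/- cells and 578 and 766 CPM in WT cells. The groups overlapped for Eci1 and for its homologue Eci2, which ranged over 193 to 296 CPM in the CD8-depleted and WT sets. Decr1, the dienoyl-CoA reductase, had 474 and 333 CPM in CD8-depleted cells, 66.2 and 605 CPM in CD3e-/- cells and 620 and 627 CPM in WT cells. It lay below WT in both CD8-depleted sets (log2 −0.65 ± 0.36, adjusted p = 0.569 over 5 sets).

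Thioesterases release the acid from coenzyme A again. Acot2, the mitochondrial form, had 92.2 and 81.2 CPM in CD8-depleted cells, 52.9 and 207 CPM in CD3e-/- cells and 279 and 141 CPM in WT cells. Both CD8-depleted sets were the lower ones (log2 −1.24 ± 0.37, adjusted p = 0.178 over 5 sets). Acot1, its cytosolic near copy, had 11.2 and 0.914 CPM in CD8-depleted cells, 4.96 and 3.28 CPM in CD3e-/- cells and 3.93 and 23.1 CPM in WT cells, with overlap. Of the 51-base stretches (the read length) of its GENCODE M1 coding transcripts, 46.7% also occur in another gene, most often Acot2, and 27.4% of those of Acot2 do, so reads may be split between them. Acot13, the most abundant thioesterase here, had 1384 and 1653 CPM in CD8-depleted cells, 210 and 1746 CPM in CD3e-/- cells and 1317 and 1430 CPM in WT cells, and its groups overlapped.

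CD3e-/- cells were also mostly below WT, with a size that depended on 1 set and a count of genes that depended on the processing. The median log2 of the 32 genes over WT was −0.98 over 6 sets and −0.30 over 5, against 0.01 and −0.06 for all genes. In both fits 30 of the 32 were below 0, against 49.8% and 53.4% of all genes. Over 5 sets with library sizes only, 20 of the 32 were below 0, against 42.2% of all genes. With each cell of these sets weighted alike, 21 of the 32 were, against 27.4%. Abundant genes as a whole lay below WT as well: among genes above the median gene by mean level, which hold 28 of the 32, the median log2 was −0.43 over 6 sets, with 68.9% of genes below 0, and −0.12 over 5, with 60.4%. The 28 members had medians of −0.98 and −0.27, with 27 and 26 of them below 0. Over 5 sets the lone CD3e-/- set has no spread of its own and is assumed to vary like the sets of the other groups. With edgeR, 0 of the 32 passed over 6 sets, as did 0 of all genes (0%, with 1071 or 8.28% at an unadjusted p of 0.05, none of them a member), and 0 over 5 sets, against 17 genes (0.127%). At an unadjusted p of 0.05, 0 of the 32 passed over 5 sets, against 329 genes (2.46%). DESeq2 called 0 of the 32 in either fit, among 611 of 12936 genes over 6 sets and 13 of 13374 over 5. Where CD3e-/- set 1 stood alone for its group, 27 of the 32 passed, and so did 4588 of 13837 genes (33.2%), in a fit that assumes that this set varies like the others. CD3e-/- set 2 was below both WT sets for 15 of the 32 genes, a pattern of 18.3% of genes tested, and above both for 4 (Fabp3, Mlycd, Acadl and Acot13), a pattern of 40.3%. With TMM scaling these were 19 and 0 of the 32, against 27.1% and 32% of genes. All 6 genes of the later spiral steps were among the 15. The smallest p-values over 6 sets were those of Acot1, Ehhadh and Crat, and the highest fitted values those of Acad10 and Cpt1a, where set 1 supplied the excess.

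Between CD3e-/- and CD8-depleted, 0 of the 32 passed over 6 sets (edgeR, 0% of genes) or over 5 (2 of 13374 genes, 0.015%). At an unadjusted p of 0.05 there were 505 genes (3.9%) and 0 members over 6 sets, and 422 genes (3.16%) and 2 members over 5 sets, Acot2 (log2 1.06 ± 0.44) and Etfa (log2 0.92 ± 0.43), both higher in CD3e-/- set 2, whose spread is assumed to be that of the other groups. DESeq2 called 0 members in either fit, among 16 of 12936 genes over 6 sets, and 2 higher and 8 lower of 13374 genes over 5. The median log2 of the 32 was −0.59 over 6 sets and 0.04 over 5. Both comparisons with WT use the same WT sets, so their values are given side by side and were not compared as independent results.

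Single cells showed how many cells had a read, which does not show how much of a level came from few cells. For Etfa, the highest cell held 15.4% and 9.91% of the counts in CD8-depleted cells, 40.6% and 20.9% in CD3e-/- cells and 9.77% and 9.07% in WT cells. Its median cell was at 254 and 120 CPM in CD8-depleted cells, 59.2 and 306 CPM in CD3e-/- cells and 589 and 387 CPM in WT cells. Thinned to 50000 nuclear counts, a median of 26 and 25 of the 32 genes had a read in a CD8-depleted cell, 22 and 26 in a CD3e-/- cell and 26 and 26 in a WT cell. Averaged over the genes, 81.6% and 77.8% of CD8-depleted cells, 66.4% and 81.2% of CD3e-/- cells and 80.6% and 79.4% of WT cells had a read. Hadh was read in 89.5% and 89.1% of CD8-depleted cells, 100% and 97.3% of CD3e-/- cells and 98.3% and 93.5% of WT cells, with overlapping exact 95% intervals. Etfa, Etfb, Hadha and Hadhb were read in at least 95.7% of cells of the 5 deeper sets, so their differences were of level rather than of cells with a read. Acads was read in 59.6% and 67.4% of CD8-depleted cells, 50% and 56% of CD3e-/- cells and 49.2% and 38.7% of WT cells. PCR reads carry no molecule tags, so such intervals cover counting error only.

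**Figure D4:**
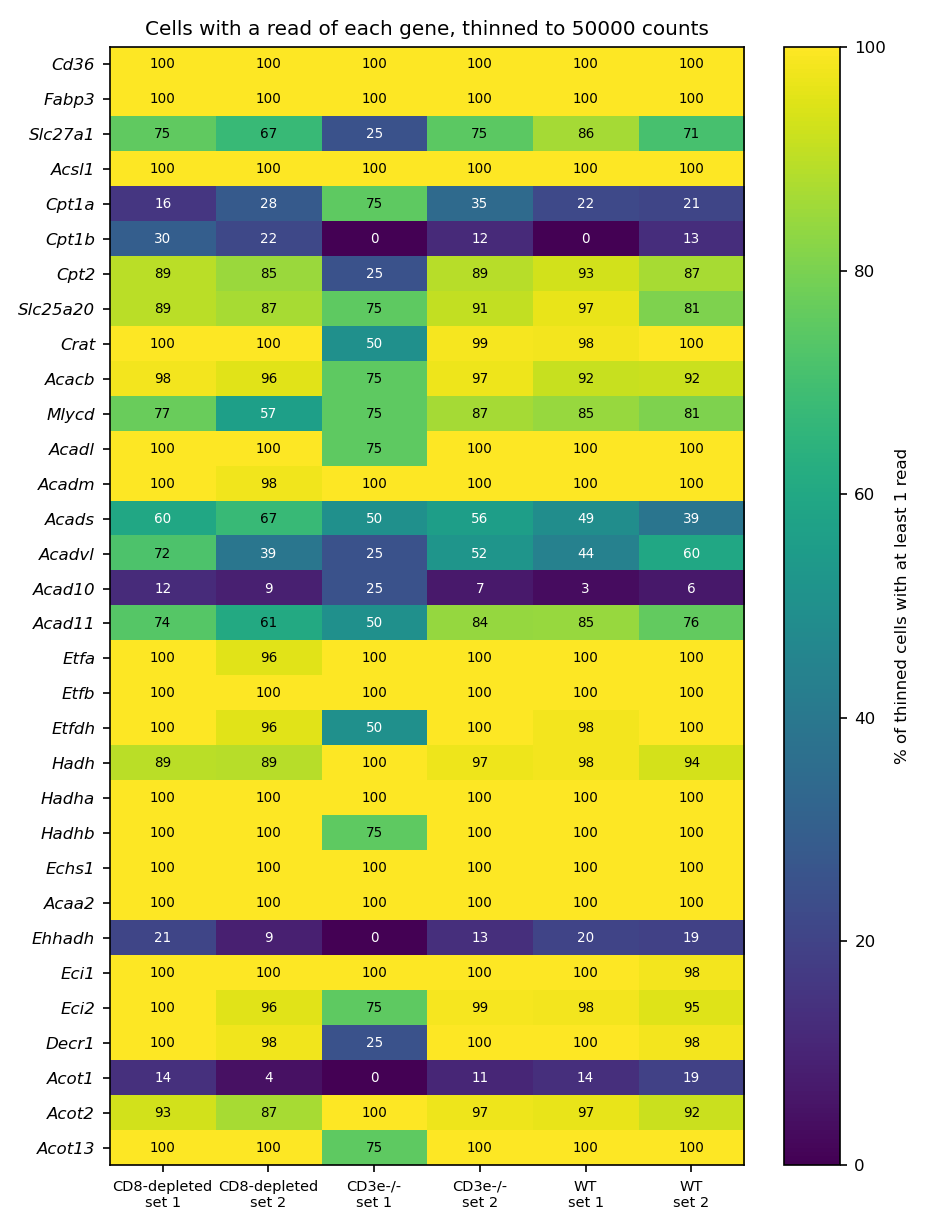
Percentage of thinned cells with at least 1 read (colour and number) for each of the 32 genes (rows) in the 6 sets (columns). Genes such as Fabp3, Etfb and Hadha reach 100% in every set, while Cpt1a, Cpt1b, Acad10, Ehhadh and Acot1 are read in at most 34.7% of cells of each set with more than 4 thinned cells.

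Fabp3 made up 53.9% and 64.1% of the summed counts of the 32 genes in CD8-depleted cells, 18.4% and 54.3% in CD3e-/- cells and 43.7% and 45.9% in WT cells, so the sum was also taken without it. The other 31 genes summed to 12140 and 10300 CPM in CD8-depleted cells, 4780 and 13910 CPM in CD3e-/- cells and 16060 and 15640 CPM in WT cells. The median cell was at 11660 and 10030 CPM in CD8-depleted cells, 5560 and 12310 CPM in CD3e-/- cells and 15630 and 14650 CPM in WT cells. Both WT sets were the highest by either measure. This sum moved with the mitochondrially encoded share, the property by which the groups also differed: across the cells of a set its Spearman correlation was −0.36 and −0.10 in CD8-depleted cells (62 and 49 cells), −0.41 in CD3e-/- set 2 (77 cells) and −0.18 and −0.40 in WT cells (59 and 62 cells), and 0.59 in the 11 cells of CD3e-/- set 1. The cells of a set share their library preparation and differ in depth. Outside CD3e-/- set 1, Fabp3 was lower at a higher share too, at −0.43 and −0.42 in CD8-depleted cells and −0.56 in CD3e-/- set 2. Its correlation was −0.54 and −0.52 in WT cells, and 0.8 in the 11 cells of CD3e-/- set 1. Between groups Fabp3 ran the other way in plain CPM. It had 14160 and 18360 CPM in CD8-depleted cells, where the median share was higher, and 12460 and 13270 CPM in WT cells. With TMM scaling these groups overlapped for Fabp3.

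In cells with 85% to 95% mitochondrially encoded counts (35 and 36 CD8-depleted, 5 and 39 CD3e-/-, 16 and 30 WT cells), the 31 genes summed to 11970 and 10400 CPM in CD8-depleted cells, 4709 and 12330 CPM in CD3e-/- cells and 15500 and 14510 CPM in WT cells. Hadhb had 797 and 728 CPM there in CD8-depleted cells, 238 and 1310 CPM in CD3e-/- cells and 1827 and 1321 CPM in WT cells. Hadh had 162 and 104 CPM in CD8-depleted cells, 205 and 219 CPM in CD3e-/- cells and 373 and 211 CPM in WT cells. Both CD8-depleted sums were below both WT sums for these genes within the range, which was chosen after the data were seen. Other genes differed from their pattern over all kept cells. Cpt2, Acadl, Acad11, Ehhadh, Etfb, Acads and Cpt1a, on one side of WT there in plain CPM, overlapped WT in this range. The remaining genes of those patterns kept their side. The part of the mitochondrially encoded share in the differences was not tested. The median log2 of the 32 genes for CD8-depleted over WT was −0.36 in these cells over 5 sets, and no gene of the 32 passed.

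**Figure D5:**
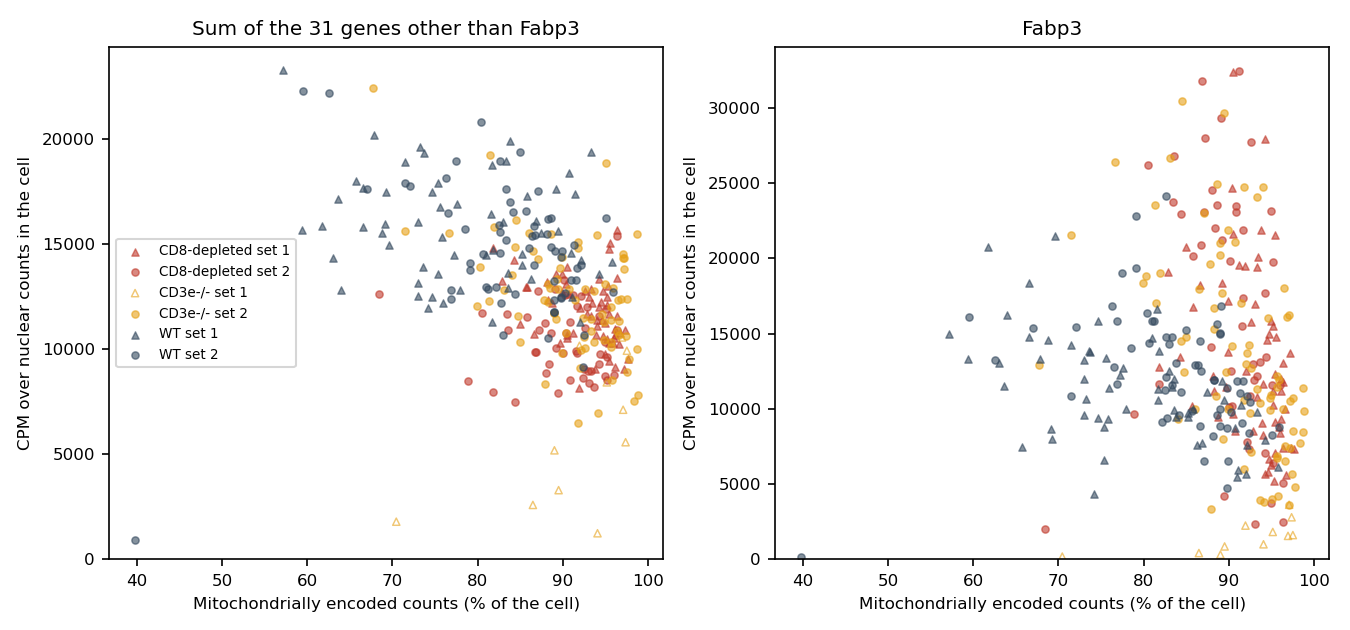
Level in each of the 320 cells (vertical axis, CPM over nuclear counts) of the 31 genes other than Fabp3 and of Fabp3 against the share of mitochondrially encoded counts (horizontal axis, %), coloured by group, with triangles for sets 1 and circles for sets 2. WT cells reach from 39.7% to 95.93%, and CD8-depleted cells from 68.45% to 97.73%. The lowest cell for the 31 genes is 1 WT set 2 cell at 926 CPM.

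Across cells of a set, the 32 genes did not rise and fall as 1 block. Among genes read in at least 50% of thinned cells, the median Spearman correlation of a pair was 0.02 and 0.03 in CD8-depleted cells, 0.10 in CD3e-/- set 2 and 0.08 and 0.10 in WT cells, over 300 to 351 pairs. Such weak values in sparse counts are given as a description only.

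Other genes of lipid oxidation, listed beside the 32, passed in 0 cases with edgeR in any of the 3 comparisons. The lists were chosen with earlier results of these data known. For CD8-depleted over WT, 50.7% of all genes were below 0 over 5 sets. Among the tested mitochondrial oxidation enzymes outside the 32, 16 of 17 were (median log2 −0.63 over 5 sets, against −0.02 for all genes). The lowest p was that of Acadsb, the dehydrogenase of short branched chains, with 40.7 and 24.3 CPM in CD8-depleted cells, 41.4 and 78.9 CPM in CD3e-/- cells and 133 and 87.9 CPM in WT cells (log2 −1.74 ± 0.42, adjusted p = 0.0704 over 5 sets). Its CD8-depleted sets were below both WT sets. Of 14 peroxisomal genes, 11 were below 0 (median log2 −0.75). Abcd3, a peroxisomal membrane transporter of acyl groups, had 40 and 29.1 CPM in CD8-depleted cells, 46.3 and 59.6 CPM in CD3e-/- cells and 150 and 66.7 CPM in WT cells, with both CD8-depleted sets below both WT sets (log2 −1.60 ± 0.43, adjusted p = 0.109 over 5 sets). All 4 tested genes of carnitine supply and medium chains were below 0 (median log2 −1.12), with Crot, a peroxisomal carnitine acyltransferase, at 15.6 and 14.6 CPM in CD8-depleted cells, 114 and 34.7 CPM in CD3e-/- cells and 42.1 and 30.9 CPM in WT cells.

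Genes that respond to PPAR, the fatty acid sensing nuclear receptors, were also mostly below 0 (8 of 9 tested, median log2 −0.82 over 5 sets, against 50.7% of all genes). Pdk4, the kinase that turns pyruvate oxidation down, had 39.4 and 30.9 CPM in CD8-depleted cells, 84.4 and 118 CPM in CD3e-/- cells and 155 and 70.6 CPM in WT cells (log2 −1.64 ± 0.41, adjusted p = 0.0891 over 5 sets). Of the regulators themselves, 11 of 16 were above 0 (31.2% below 0, against 50.7% of all genes), with a median log2 of 0.09. Ppara, the receptor that drives fatty acid oxidation genes in heart, had 46.8 and 49.6 CPM in CD8-depleted cells, 36.4 and 41.1 CPM in CD3e-/- cells and 26.2 and 34 CPM in WT cells. Ppara was above WT in both CD8-depleted sets, by a log2 of 0.63 that did not pass. Ppargc1a, a coactivator of these receptors, had 205 and 151 CPM in CD8-depleted cells, 76.1 and 156 CPM in CD3e-/- cells and 227 and 123 CPM in WT cells, with overlap. Esrra, an estrogen-related receptor of oxidative genes, overlapped as well (log2 −0.02). Klf15, a cardiac regulator of lipid use, was at 7.72 and 8.23 CPM in CD8-depleted cells, 8.27 and 21 CPM in CD3e-/- cells and 26.3 and 29.6 CPM in WT cells, and Ppargc1b ran the other way at 92 and 66.6 CPM in CD8-depleted cells, 44.6 and 60.4 CPM in CD3e-/- cells and 30.5 and 36.5 CPM in WT cells. Neither passed.

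The list of other uptake, binding and activation genes was near 0 (median log2 −0.11 over 5 sets, 7 of 13 below 0). Gpihbp1, which anchors lipoprotein lipase on capillary endothelium, had 60.3 and 226 CPM in CD8-depleted cells, 106 and 44 CPM in CD3e-/- cells and 70.8 and 61 CPM in WT cells. CD8-depleted set 2 alone stood high for Gpihbp1 among the 5 deeper sets, and it was also the one with the highest endothelial markers of these 5. The part of endothelial RNA in that value was not tested. Acss1, a mitochondrial acetyl-CoA synthetase, had 174 and 167 CPM in CD8-depleted cells, 79.4 and 273 CPM in CD3e-/- cells and 348 and 314 CPM in WT cells, with both WT sets the highest.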

How the data were processed

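Reads of single cardiomyocytes were paired-end and 51 bases long. The submitters' processing notes name fastp 0.21.0, STAR 2.7.5c, featureCounts (version not given in the sources used here) and the mm10 build, without saying what each did. The study's methods instead name TopHat, an earlier mouse build and FPKM values, which were not used here. The deposited values are whole-number counts per gene and cell with no normalization. Here, cells with at least 3000 detected genes were kept, the 13 mitochondrially encoded genes were left out, and counts were summed over the kept cells of each numbered set. Kept cells had 255214 to 6896166 counts in all genes. Sums were fitted with the quasi-likelihood test of edgeR 4.0.16 (R 4.3.3, filterByExpr, TMM, 1 mean per group, Benjamini-Hochberg adjustment over all genes tested, threshold 0.05), and SEs were taken from the fold change and its F value. DESeq2 1.42.0 and limma 3.58.1 were alternatives. Fits were tested on simulated data. Single values were compared with two-sided exact permutation tests over sets. Detection was compared after thinning cells to 50000 nuclear counts. Gene lengths and overlaps came from the exon coordinates in the deposited count table, and promoters from RefSeq on GRCm38.p6. The members and all lists were chosen with earlier results of these data known. All 32 members are named. Other genes were named by a rule of at most 3 per list and direction, by smallest p for CD8-depleted over WT, plus Ppara, Ppargc1a and Esrra. A gene that this rule names is not reported here.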

Additional observations from a re-analysis of the deposited data

How the results depend on the processing

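For CD8-depleted over WT, the median of the 32 genes stayed below 0 in all 32 alternatives, and members were called in 4 of them: 3 with DESeq2 over 5 sets, and the fits that left out a further set. All genes called, 0 over 6 sets with edgeR, came to 8 with DESeq2, 12 with no low-count filter and 2 with only the 2 groups. Over 5 sets they were 156 with DESeq2, 1 with limma-voom, 10 with library sizes only, 29 without the highest cell of each gene and 2 in cells with 85% to 95% mitochondrially encoded counts. Leaving out sets gave 0 to 226 genes and 0 to 6 members, most without CD3e-/- set 1 and WT set 2.

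For CD3e-/- over WT, DESeq2 called 611 genes and the fit with no filter 303 over 6 sets. Over 5 sets the counts were 13 with DESeq2, 1 with limma-voom, 6 with library sizes only, 1 with thinned cells, 3 without the highest cell and 2 in the 85% to 95% cells. For CD3e-/- over CD8-depleted they were 16 and 106 over 6 sets, and 10 with DESeq2, 1 with library sizes only and 2 without the highest cell over 5. Leaving out sets gave 0 to 4588 genes, 0 to 27 members and medians of −3.04 to −0.19 over WT, and 0 to 3472 genes, 0 to 23 members and medians of −2.90 to 0.34 over CD8-depleted. The highest counts came without CD3e-/- set 2, where set 1 stood alone. The cause was not tested. Library sizes without TMM factors moved the median of all genes to 0.68 for CD3e-/- over WT and 0.73 over CD8-depleted.

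Set numbers did not pair the sets (correlations of deviations −0.19, −0.05 and 0.07). With the number as a replicate block, 0 genes were called over 6 sets and the medians of the 32 were −0.40, −1.24 and −1.04 for CD8-depleted over WT, CD3e-/- over WT and CD3e-/- over CD8-depleted. Over 5 sets the block gave 10, 15 and 3 genes and 0 members. With CD3e-/- numbers crossed, 0 genes were called.

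The mean share of cells with a read differed by −0.34 percentage points for CD8-depleted minus WT, by −3.43 unthinned, −2.74 thinned to 20000 counts and −6.05 in all cells. The Cpt1b share kept its direction in all 9 alternatives. The fits over 5 sets beyond edgeR, the further sets left out, the 85% to 95% cells, the TMM-scaled patterns and the crossed block were chosen after seeing the data.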
